A study of Mus musculus with 12 samples.

Results

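Colony-stimulating factors are secreted proteins that drive the survival, growth and activation of macrophages and granulocytes. CSF1 (M-CSF) acts through the receptor tyrosine kinase CSF1R. CSF2 (GM-CSF) binds a receptor made of a ligand-specific alpha chain, CSF2RA, and a beta chain, CSF2RB, that the receptors for interleukin-3 and interleukin-5 also use. CSF3 (G-CSF) binds CSF3R, which pairs with itself. CSF1R and the CSF2 receptor are carried by macrophages, and tumour cells of several kinds secrete the ligands.

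The 7 mouse genes of this family, 3 ligands (Csf1, Csf2, Csf3) and 4 receptor chains (Csf1r, Csf2ra, Csf2rb, Csf3r), were followed on 12 one-colour Agilent arrays. Every probe annotated with one of these symbols was taken, which gave 13 of 55681 probes and 7 of 35080 gene names. Csf1 had 4 probes, Csf1r had 3, Csf2rb had 2 and the other 4 genes had 1 each. The Csf1 probe A_51_P195506 and the Csf2 probe were printed as 10 spots per array, and every other member probe as 1 spot.

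The arrays formed 4 groups of 3. RAW264.7, a macrophage-like line that came from a virus-induced mouse tumour, was transfected with a short hairpin RNA against ABHD5 (ABHD5-KD) or with the PLKO vector as control. ABHD5 is a lipid-droplet protein that activates the triglyceride lipase ATGL. CT-26, a carcinoma line of the mouse colon, was primed by ABHD5-KD RAW264.7 cells (KD-primed) or by control RAW264.7 cells (control-primed). The method of priming, any removal of RAW264.7 cells from the CT-26 samples before RNA extraction, the number of hairpins or clones, and the independence of the 3 cultures in a group are not given in the labels. A p-value here therefore reflects variation among these particular samples, which may be technical. The RNA is from whole cultures, in which fewer cells of a type and less RNA per cell cannot be told apart.

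Levels are given as log2 signal relative to the 75th percentile of the same array, so 0 is the signal of a spot at that percentile. Levels of different probes are not comparable with each other, and each level below is followed across groups for one probe. A probe counted as measured on an array where the scanner software marked it (or more than 0.5 of its spots) as well above background. Changes are log2 differences tested with limma over all genes, with Benjamini-Hochberg adjustment and a threshold of 0.05. Each gene was represented by the measured probe with the highest mean over the 12 arrays, and probes were also tested one by one over all probes.

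Slide and cell line were not independent. Slide 1 held control RAW264.7 replicates 1 and 2, slide 2 held the 3 ABHD5-KD arrays with control RAW264.7 replicate 3, and slide 3 held all 6 CT-26 arrays. The share of spots well above background was 69.0 to 73.0% on the ABHD5-KD arrays, and among control RAW264.7 arrays it was 56.5% and 57.9% on slide 1 and 72.7% on slide 2. The share was 59.3 to 67.0% in KD-primed CT-26 cells and 68.3 to 77.3% in control-primed CT-26 cells. Abhd5 itself averaged 0.29 ± 0.09 in ABHD5-KD and 1.61 ± 0.28 in control RAW264.7 cells (SD, n = 3 each) on its representative probe, a change of -1.32 (limma adjusted p = 0.00346). The other Abhd5 probes gave -1.30 (adjusted p = 0.0157) and -0.78 (adjusted p = 0.0759) over all probes. The macrophage markers (10 genes) were all measured on every RAW264.7 array, and the sum of their linear signals, in units of the 75th percentile, was 253 to 285 in ABHD5-KD and 216 to 287 in control RAW264.7 cells. In CT-26 cells the sum was 54.9 to 73.9 when KD-primed and 54.1 to 59.2 when control-primed. Of the 10 markers, 8 were well above background on each KD-primed array and 8 to 9 on each control-primed array. Adgre1 (F4/80) was not well above background on any of these 6 arrays, and Laptm5 was well above background on only 1 of them. Itgam averaged 5.77 in KD-primed and 5.60 in control-primed cells, so this 1 probe made up most of the CT-26 sum. The defining epithelial marker Cdh1 was not well above background on any array. Of the epithelial list Krt20 averaged 4.60 in KD-primed and 4.80 in control-primed CT-26 cells and Krt18 1.78 in KD-primed and 2.43 in control-primed cells, while Vil1 was not well above background on any CT-26 array.

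Probe sequences bear on what each value can show, so the parts that matter are given here, as 30-base stretches read from the scanner files (mm9 coordinates of the whole probe, strand from the order of the listed coordinates). The results on the ligands rest on 1 probe each, at chr3:107544333-107544392 (minus strand) for Csf1, chr11:54060772-54060799 (minus strand, the part of the probe that the files place) for Csf2 and chr11:98564614-98564673 (plus strand) for Csf3. None of these 3 probes shares a run of 15 or more bases with a probe of another gene.
Csf1: actatttccatgctagaaaatacatatttt
Csf2: gcaagacaaacgagagatattttctactga
Csf3: aacagcagtgttcccaaactgggttcttat

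Mice carry a second beta chain gene, Csf2rb2, which lies on the same chromosome as Csf2rb and encodes a chain that serves the interleukin-3 receptor. One Csf2rb probe (A_52_P52618, chr15:78181168-78181227, plus strand) and one Csf2rb2 probe (A_51_P146753, chr15:78113126-78113185, minus strand) were closely alike. Over 30 bases they were identical at 27 (90%), and differed by A11G, C15T and C25A, with the Csf2rb base first and positions counted from the 5′ end of the stretch. Capitals mark those positions. The other Csf2rb probe (A_66_P123635) matched no Csf2rb2 probe at more than 14 of 30 bases.
Csf2rb: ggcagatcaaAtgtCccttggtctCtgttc
Csf2rb2: ggcagatcaaGtgtTccttggtctAtgttc

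The only Csf3r probe (chr4:125721478-125721537, plus strand) holds letters of the B1 family, a short interspersed repeat with very many copies in the mouse genome. It shared a run of 15 or more bases on the same strand with 10 probes of other genes, the longest of 30 bases. The run that it shares with the probe of Mtif2, a mitochondrial translation factor (chr11:29445083-29445142, plus strand), is in capitals.
Csf3r: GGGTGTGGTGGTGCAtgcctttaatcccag
Mtif2: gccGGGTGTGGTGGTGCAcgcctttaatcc

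The first comparison asks what silencing of ABHD5 did in the macrophage-like cells. All 3 ligand genes were higher in ABHD5-KD than in control RAW264.7 cells, Csf1 by 5.56-fold, Csf2 by 13.1-fold and Csf3 by 14.0-fold. None of the 4 receptor genes passed at gene level, on the representative probe. Over probes, another Csf1r probe passed as lower and another Csf2rb probe as higher, as given below. Groups did not overlap for these 3 ligands as higher and for 1 receptor, Csf3r, as lower, beside 12.5% of all genes as higher and 39.7% as lower. Of all 25459 genes tested, 22.8% passed in either direction, 7.94% as higher (2021 genes) and 14.9% as lower (3781 genes). Centring arrays on their median in place of the 75th percentile gave 2398 genes higher and 1436 lower, and quantile normalization 2186 and 1869. The median change of all genes was -0.30 with the 75th percentile and -0.08 with either of these. The same 3 members passed under each of these scalings. Of the 10 macrophage markers 4 were higher in ABHD5-KD cells (Lyz2, Adgre1, Fcgr3 and Mpeg1) and none lower, and their part in the ligand results was not tested.

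Csf1, the macrophage growth factor, had levels of -2.14, -1.55 and -0.64 in ABHD5-KD cells and -4.22, -4.32 and -3.20 in control RAW264.7 cells on probe A_51_P195506. The groups did not overlap, and the control array from the slide that also held the ABHD5-KD arrays was the highest control. The change was 2.47 (SE 0.418, 95% interval 1.52 to 3.43, adjusted p = 0.00608). With slide as a block, which sets the 3 ABHD5-KD arrays against that 1 control array alone and assumes that it varies like the others, the change was 1.76 and did not pass (adjusted p = 0.103).

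The other Csf1 probes were near the limit of measurement in these cells. A_55_P2017914, annotated to transcript variant 3, was well above background on all 3 ABHD5-KD arrays (-5.77, -6.19 and -5.70) and on none of the control RAW264.7 arrays (-5.58, -6.70 and -9.00). The control values overlapped those of ABHD5-KD cells, and the change of 1.21 did not pass (adjusted p = 0.221 over probes). The value turned on control replicate 3, which was not well above background: without it the change was 0.25, and with normexp correction -0.22. A_55_P2169669, also of variant 3, was well above background on 2 ABHD5-KD arrays and no control RAW264.7 array and was not tested. A_55_P2017911 was well above background on 1 of the 12 arrays, control-primed CT-26 replicate 1.

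Csf2, which drives granulocyte and macrophage production and activation, had levels of -1.50, -0.89 and 0.04 in ABHD5-KD cells and -4.58, -4.16 and -4.75 in control RAW264.7 cells. Every ABHD5-KD array lay far above every control array, and the first control value was not well above background. The change was 3.72 (SE 0.366, 95% interval 2.88 to 4.55, adjusted p = 0.000347). With slide as a block, again against the 1 control array of the shared slide, it was 3.97 (adjusted p = 0.00359).

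Csf3, the granulocyte growth factor, reached 4.99, 5.18 and 4.97 in ABHD5-KD cells, against 0.73, 0.63 and 2.36 in control RAW264.7 cells. The ABHD5-KD arrays were tightly grouped, and the control arrays were spread, with the highest value on the slide shared with the ABHD5-KD arrays. The change was 3.81 (SE 0.419, 95% interval 2.85 to 4.76, adjusted p = 0.000642). Against that 1 control array, with slide as a block, it was 2.69 (adjusted p = 0.000581).

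**Figure D1:**
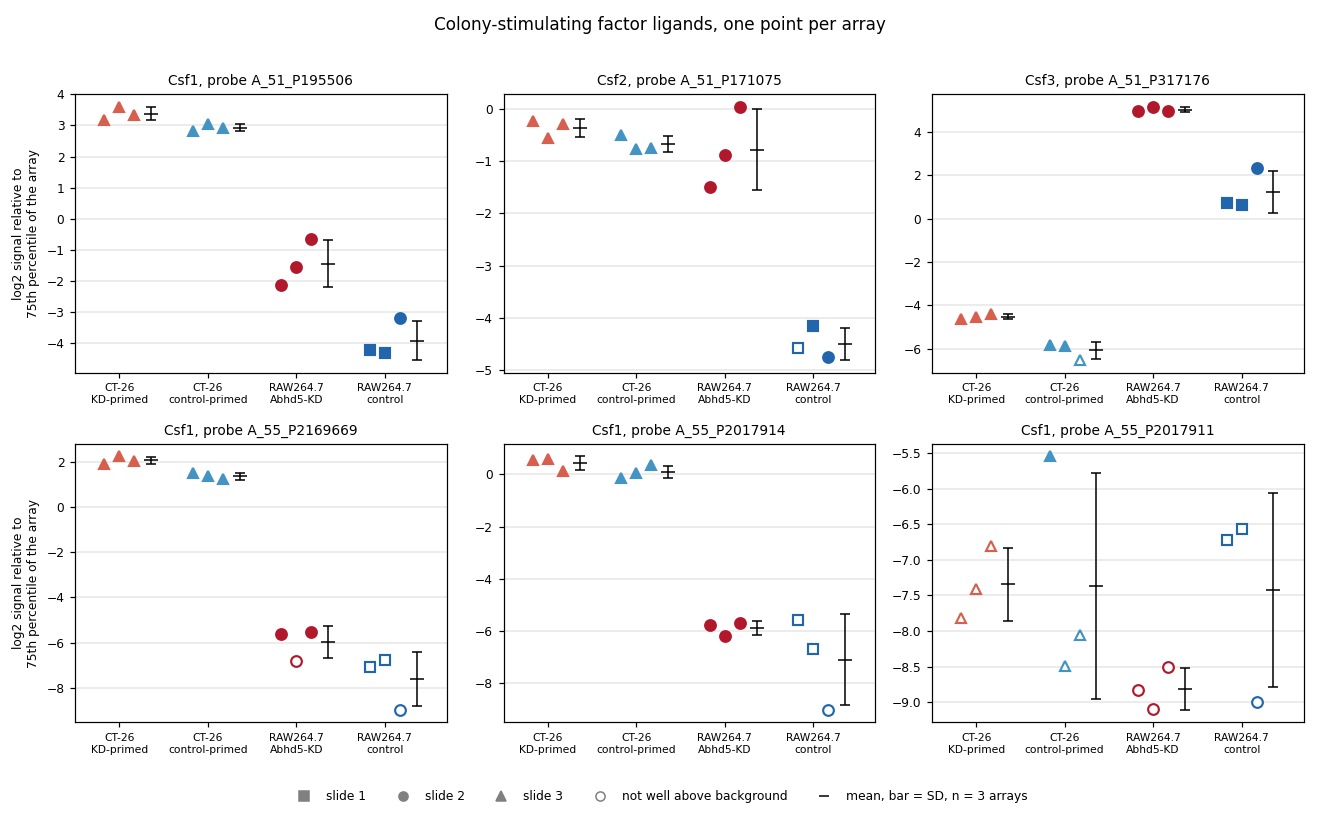
Level of each ligand probe on each of the 12 arrays (vertical axis, log2 signal relative to the array's 75th percentile, own scale per panel), by group, with the symbol giving the slide, hollow symbols for arrays where the probe was not well above background, and the mean with SD (n = 3 arrays) in black. Csf3 lies between 4.97 and 5.18 in ABHD5-KD RAW264.7 cells and at or below -4.39 on every CT-26 array, while Csf1 on A_51_P195506 is at or above 2.82 on every CT-26 array and at or below -0.64 on every RAW264.7 array.

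Among the receptors, Csf2ra, the alpha chain that binds CSF2, had 3.83, 4.01 and 3.86 in ABHD5-KD cells and 3.78, 3.96 and 3.93 in control RAW264.7 cells. The groups overlapped, and the change of 0.01 had a 95% interval of -0.38 to 0.39 (adjusted p = 0.974).

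Csf1r, the CSF1 receptor and a lineage gene of macrophages, was read by 3 probes on chromosome 18 that did not give the same call. A_55_P2025073, which represented the gene, had 2.02, 2.09 and 2.27 in ABHD5-KD cells and 2.46, 2.12 and 2.82 in control RAW264.7 cells. These groups overlapped, and the change was -0.34 (95% interval -0.84 to 0.16, adjusted p = 0.253). A_52_P602091 had 2.98, 3.20 and 3.35 in ABHD5-KD cells, against 3.73, 4.23 and 3.92 in control RAW264.7 cells.

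On A_52_P602091 the groups did not overlap, and Csf1r fell by 0.78 (adjusted p = 0.0336 over probes). The call was lost with array-median centring (-0.56, adjusted p = 0.054), quantile normalization (-0.48, adjusted p = 0.105), no filter on dim probes (adjusted p = 0.0876), slide as a block (-0.74, adjusted p = 0.26), and on leaving out any 1 ABHD5-KD array (adjusted p of 0.0856 to 0.105). A_55_P2025078 gave -0.72 (adjusted p = 0.0608), with 4.27, 4.49 and 4.49 in ABHD5-KD cells and 4.83, 5.61 and 4.96 in control RAW264.7 cells. All 3 probes thus had a lower mean in ABHD5-KD cells, beside a median change of -0.29 over all probes tested, and 1 of 3 passed.

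Csf2rb, the shared beta chain, passed on 1 of its 2 probes. A_66_P123635 had 0.48, 0.63 and 0.60 in ABHD5-KD cells and 0.60, 0.76 and 0.67 in control RAW264.7 cells, a change of -0.11 that did not pass (95% interval -0.48 to 0.27, adjusted p = 0.638). A_52_P52618, the probe that resembles Csf2rb2, had 1.82, 1.64 and 1.72 in ABHD5-KD cells and -0.63, -0.48 and -0.16 in control RAW264.7 cells. On that probe every ABHD5-KD array was above every control array, and the change was 2.15 (SE 0.194, adjusted p = 0.000253 over probes).

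The paralogue Csf2rb2 rose as well. On A_51_P146753 it had 2.11, 2.17 and 2.37 in ABHD5-KD cells and -0.95, -0.79 and -0.75 in control RAW264.7 cells, a change of 3.04 (SE 0.174, adjusted p = 1.86e-05). On A_55_P2034663, which matched the Csf2rb probe at no more than 15 of 30 bases, it had -1.51, -1.54 and -1.29 in ABHD5-KD cells, against -3.67, -3.77 and -3.61 in control RAW264.7 cells, a change of 2.23 (adjusted p = 0.000122 over probes). Whether A_52_P52618 also reports Csf2rb2 RNA was not tested, so the rise on that probe is given for the probe and not for Csf2rb. The 2 Csf2rb probes also differed in CT-26 cells, where A_66_P123635 was well above background on every array and A_52_P52618 on none. Which of them reports Csf2rb RNA was not tested, and every Csf2rb value here is a value of its probe.

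Csf3r had 3.88, 4.14 and 4.03 in ABHD5-KD cells and 4.54, 4.83 and 4.32 in control RAW264.7 cells. Every ABHD5-KD array was below every control array. The change of -0.55 (95% interval -0.99 to -0.10) did not pass (adjusted p = 0.0712), and quantile normalization gave -0.19. Without control RAW264.7 replicate 3 it was -0.67 (limma adjusted p = 0.0454 over genes and 0.0505 over probes).

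**Figure D2:**
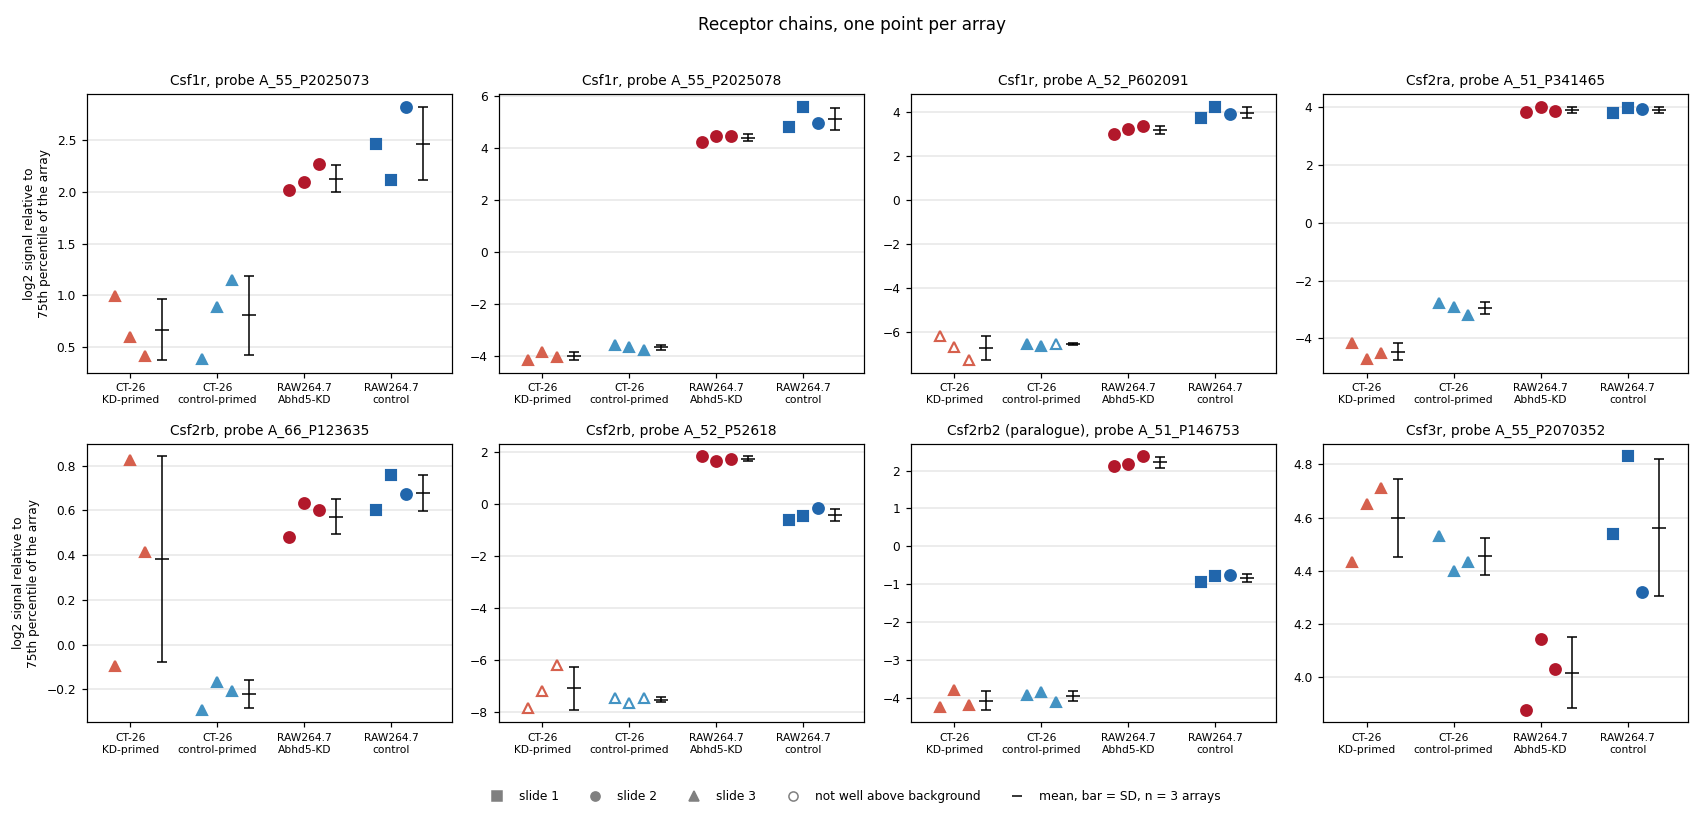
Level of each receptor probe, and of the Csf2rb2 probe that resembles a Csf2rb probe, on each of the 12 arrays (vertical axis, log2 signal relative to the array's 75th percentile, own scale per panel), by group, with slides as symbols, hollow symbols for arrays where the probe was not well above background, and the mean with SD (n = 3 arrays) in black. Csf2rb probe A_52_P52618 and the Csf2rb2 probe are higher in ABHD5-KD than in control RAW264.7 cells, Csf2rb probe A_66_P123635 is not, and Csf3r spans less than 1 log2 unit over all 12 arrays.

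Tested probe by probe, 11 of the 13 member probes entered the comparison, of which 4 passed as higher (Csf1 A_51_P195506, Csf2, Csf3 and Csf2rb A_52_P52618), 1 as lower (Csf1r A_52_P602091) and 6 not at all. Over all 37196 probes tested, 7.9% passed as higher and 13.1% as lower. The median change of all probes tested was -0.29.

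The second comparison asks how CT-26 cells differed after priming by ABHD5-KD in place of control RAW264.7 cells. Csf3 was 2.95-fold higher in KD-primed cells and Csf2ra was 2.81-fold lower, and the other 5 members did not pass at gene level. Over probes, another Csf1 probe passed as higher, as given below. Groups did not overlap for 3 members as higher (Csf1, Csf3 and Csf2rb) and 1 as lower (Csf2ra), beside 25.1% of all genes as higher and 11.1% as lower. Of 24996 genes tested, 6.36% passed, 3.15% as higher (788 genes) and 3.21% as lower (802 genes). Array-median centring gave 1123 higher and 669 lower, and normexp background correction 1184 and 652. The median change of all genes was 0.11.

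Csf3 had -4.65, -4.54 and -4.39 in KD-primed cells and -5.85, -5.88 and -6.53 in control-primed cells. The signal was low in both groups, the value of control-primed replicate 3 was not well above background, and the groups did not overlap. The change was 1.56 (SE 0.207, 95% interval 1.09 to 2.03, adjusted p = 0.00915). Without a filter on dim probes it did not pass (adjusted p = 0.0781), a setting that leaves 41 of all genes past the threshold.

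Csf2ra had -4.15, -4.73 and -4.49 in KD-primed cells and -2.79, -2.91 and -3.19 in control-primed cells, with no overlap. It fell by 1.49 (SE 0.194, 95% interval -1.93 to -1.05, adjusted p = 0.00849), and without the filter the adjusted p was 0.0727. With normexp correction the change was -0.95 (adjusted p = 0.0108). Csf3 and Csf2ra were both far higher in RAW264.7 than in CT-26 cells. Csf3 averaged 5.05 in ABHD5-KD and 1.24 in control RAW264.7 cells, whereas Csf2ra averaged 3.90 in ABHD5-KD and 3.89 in control RAW264.7 cells. The macrophage list beside them had 1 of 8 tested markers lower and none higher in KD-primed cells, beside 3.21% and 3.15% of all genes. The lower one was Cd68 (0.91 in KD-primed and 1.73 in control-primed cells). The part of RAW264.7 RNA in these CT-26 values was not tested.

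Csf1 in CT-26 cells had 3.19, 3.60 and 3.35 when KD-primed and 2.82, 3.05 and 2.91 when control-primed. The groups did not overlap, and the change of 0.45 (95% interval 0.08 to 0.83) did not pass (adjusted p = 0.114). On A_55_P2169669, of transcript variant 3, the values were 1.88, 2.23 and 2.03 when KD-primed, against 1.51, 1.35 and 1.21 when control-primed. That probe was 1.61-fold higher (0.69, SE 0.168, adjusted p = 0.0453 over probes). The call was lost with quantile normalization (0.64, adjusted p = 0.0614). A_55_P2017914, of the same variant, changed by 0.34 (adjusted p = 0.269) with overlapping groups.

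Csf2 had -0.23, -0.56 and -0.30 in KD-primed cells and -0.50, -0.77 and -0.76 in control-primed cells. These overlapped, and the change of 0.31 had a 95% interval of -0.06 to 0.69 (adjusted p = 0.229). Csf2rb on A_66_P123635 had -0.09, 0.82 and 0.41 in KD-primed cells and -0.29, -0.17 and -0.20 in control-primed cells. KD-primed replicate 1 lay near the control-primed arrays, and the change of 0.60 did not pass (adjusted p = 0.117). Without that array it was 0.84 (adjusted p = 0.0347). On A_52_P52618, Csf2rb was not well above background on any CT-26 array.

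Csf1r and Csf3r did not pass in CT-26 cells. Csf1r on A_55_P2025073 had 0.99, 0.59 and 0.42 in KD-primed cells and 0.39, 0.88 and 1.15 in control-primed cells, a change of -0.14 (95% interval -0.66 to 0.38). Csf1r on A_55_P2025078 gave -4.13, -3.84 and -4.01 in KD-primed cells, against -3.57, -3.64 and -3.77 in control-primed cells, a change of -0.33 (adjusted p = 0.197 over probes). Csf3r had 4.43, 4.65 and 4.71 in KD-primed cells and 4.53, 4.40 and 4.43 in control-primed cells, a change of 0.14 (95% interval -0.20 to 0.49, adjusted p = 0.539). Of the 10 member probes tested, 2 passed as higher and 1 as lower, beside 2.79% and 3.88% of all 37498 probes tested.

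**Figure D3:**
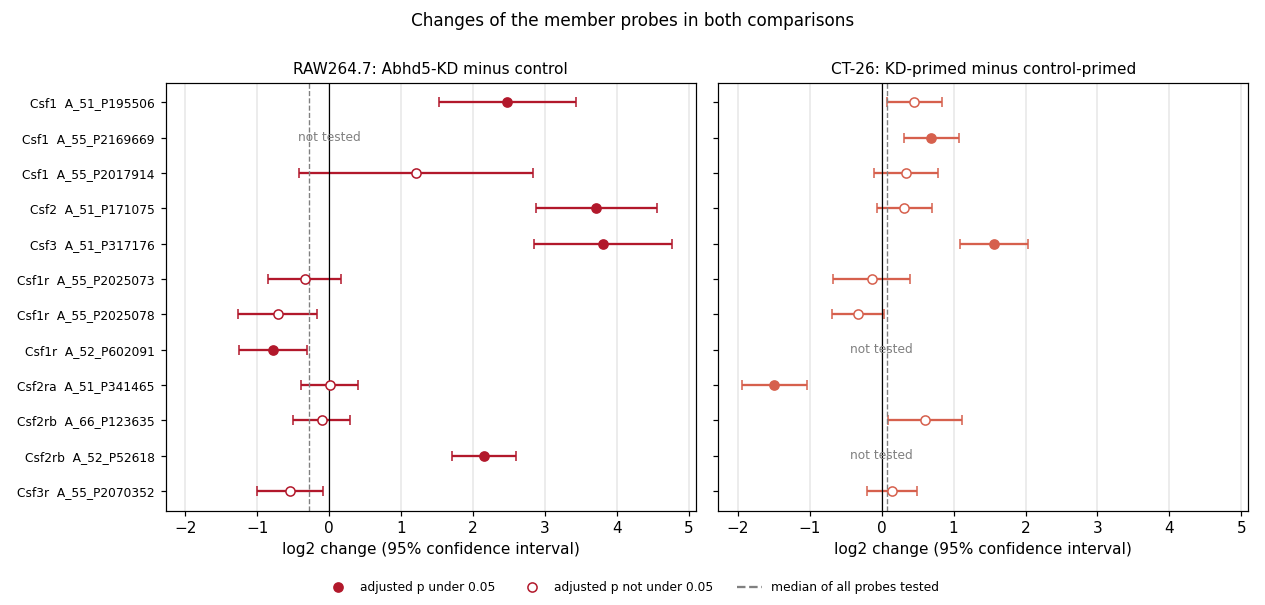
Log2 change of each member probe (horizontal axis, with 95% confidence interval from limma over 3 arrays a group) for ABHD5-KD minus control RAW264.7 cells on the left and KD-primed minus control-primed CT-26 cells on the right, with filled points where the adjusted p was under 0.05 and a dashed line at the median of all probes tested. The ligand probes that passed changed by 2.47 to 3.81 in RAW264.7 cells and Csf1 A_55_P2017914 by 1.21 without passing, whereas in CT-26 cells Csf3 (1.56) and Csf2ra (-1.49) lie farthest from 0.

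The difference between both changes was tested as an interaction over all 12 arrays, taking the RAW264.7 change minus the CT-26 change. Csf1, Csf2, Csf3 and Csf2ra were positive and passed, and Csf3r was negative and passed, against 7.43% (positive) and 23.9% (negative) of 27072 genes. The median over all genes was -0.39. The largest difference among the members was that of Csf2, whose ABHD5-KD change of 3.72 exceeded its CT-26 change of 0.31 by 3.40 (SE 0.443, adjusted p = 0.000448). The ligand differences were 2.02 for Csf1 (adjusted p = 0.0139) and 2.25 for Csf3 (adjusted p = 0.0111).

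For Csf2ra the difference was 1.50 (adjusted p = 0.00222), with a change of 0.01 in RAW264.7 cells and -1.49 in CT-26 cells. For Csf3r it was -0.69 (adjusted p = 0.0432). The Csf3r call was lost under array-median centring, quantile normalization (-0.07), normexp correction and probe-level testing (adjusted p = 0.0508), and on leaving out any single array other than control RAW264.7 replicate 3 or KD-primed replicate 1. With slide as a block, Csf2 (3.66, adjusted p = 0.00212) and Csf2ra (1.46, adjusted p = 0.0177) still passed, while Csf1 (1.31, adjusted p = 0.124), Csf3 (1.12, adjusted p = 0.0589) and Csf3r (-0.45, adjusted p = 0.281) did not. Csf1r (-0.20) and Csf2rb on A_66_P123635 (-0.71, adjusted p = 0.0756) did not pass, although Csf2rb did without KD-primed replicate 1 (-0.94, adjusted p = 0.0129).

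The levels also separated the cell lines. Since all CT-26 arrays were on a slide of their own, cell line and slide cannot be told apart in what follows. Control-primed CT-26 cells had 115-fold more Csf1 signal (log2 difference 6.84, adjusted p = 3.22e-09) and 14.2-fold more Csf2 signal (3.82, adjusted p = 2.65e-07) than control RAW264.7 cells. Csf3 was 160-fold lower (-7.33, adjusted p = 2.6e-09) and Csf2ra 116-fold lower (-6.86, adjusted p = 6.55e-12). Of the 7 members 2 were higher, 4 lower and 1 (Csf3r) without a call, where 26.5% of 25587 genes were higher and 45.7% lower, with a median of -0.40.

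For Csf1, both variant 3 probes pointed the same way, with at least 105-fold more signal on A_55_P2169669 (1.36 in control-primed CT-26 cells and -7.59 in control RAW264.7 cells) and at least 43.9-fold more on A_55_P2017914 (0.09 in control-primed CT-26 cells and -7.09 in control RAW264.7 cells). These are bounds because neither probe was well above background on any control RAW264.7 array. They were computed on each array against the lowest signal of any probe well above background, or against this probe's signal where that was higher. The order of the group means for Csf1 was therefore KD-primed CT-26, control-primed CT-26, ABHD5-KD RAW264.7 and control RAW264.7 on A_51_P195506, with 3.38, 2.93, -1.44 and -3.91, and no neighbours in that order overlapped.

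For Csf2 the order was the same, with -0.36, -0.68, -0.78 and -4.50, and the first 3 groups overlapped. KD-primed CT-26 cells did not differ from ABHD5-KD RAW264.7 cells in Csf2 at this threshold (0.42, 95% interval -0.25 to 1.10, adjusted p = 0.264). For Csf3 the order was ABHD5-KD RAW264.7 (5.05), control RAW264.7 (1.24), KD-primed CT-26 (-4.53) and control-primed CT-26 (-6.09), with no overlap between neighbours. KD-primed CT-26 cells had 761-fold less Csf3 signal than ABHD5-KD RAW264.7 cells (-9.57, adjusted p = 2.03e-10). In that comparison 2 members were higher (Csf1 and Csf3r) and 3 lower (Csf3, Csf1r and Csf2ra), where 29.1% of 26275 genes were higher and 28.3% lower.

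Csf1r differed between cell lines on all probes, but by very different amounts. Its difference between control-primed CT-26 and control RAW264.7 cells was -1.66 on A_55_P2025073, -8.79 on A_55_P2025078 and -10.53 on A_52_P602091. The first of these probes was well above background on all 12 arrays, whereas A_52_P602091 was so on 0 of 3 KD-primed and 2 of 3 control-primed CT-26 arrays.

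Csf2rb had the same split. On A_66_P123635 it was 1.86-fold lower in control-primed CT-26 than in control RAW264.7 cells (-0.90, adjusted p = 0.00156), and on A_52_P52618 at least 76.4-fold lower. Csf3r averaged 4.45 in control-primed CT-26 cells and 4.56 in control RAW264.7 cells (-0.11, 95% interval -0.47 to 0.25, adjusted p = 0.567), and quantile normalization turned this to 0.62.

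By the root mean square difference of log2 profiles after removal of each probe's mean, the nearest gene to the Csf3r probe among 17106 was Mtif2 (0.0478), followed by Sdad1 (0.0833) and Ankrd6 (0.0843). The Mtif2 probe is one of the 10 that share a run with the Csf3r probe. The other 9 lay farther from the Csf3r probe than Sdad1 and Ankrd6 did, at distances of 0.126 to 0.727, and the median over the 10 was 0.251. Of these 10 probes 9 were well above background on all 12 arrays. Their median change between ABHD5-KD and control RAW264.7 cells was -0.61 (-1.23 to -0.43), where the Csf3r probe had -0.55 and all probes, tested or not, had a median of -0.47. Whether the Csf3r probe reports Csf3r mRNA or RNA with the repeat was not tested, and every Csf3r value above is a value of this probe.

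**Figure D4:**
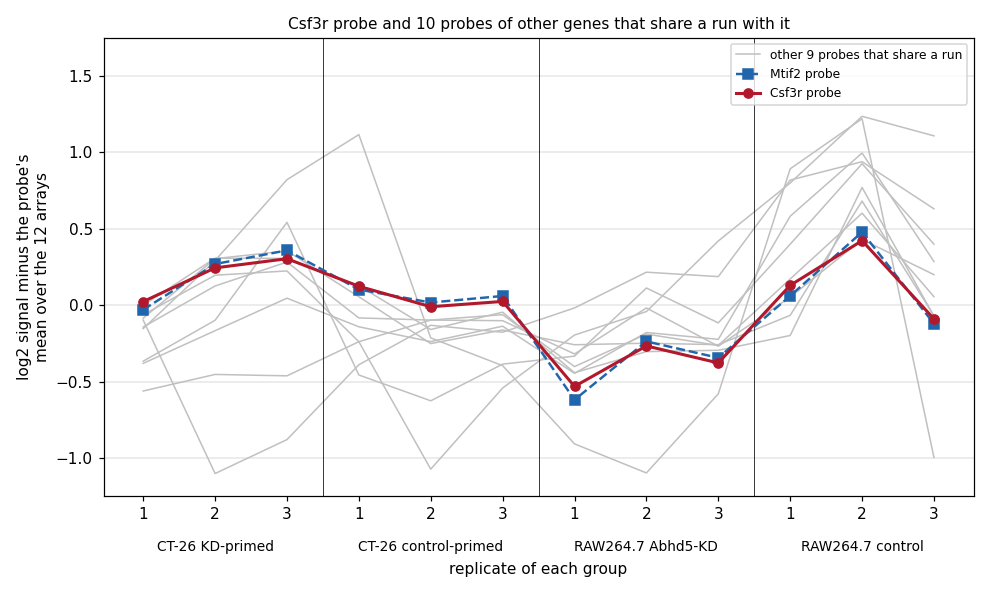
Log2 signal minus the probe's own mean over the 12 arrays (vertical axis) for the Csf3r probe in red, the Mtif2 probe in blue and the other 9 probes that share a run of 15 or more bases with the Csf3r probe in grey, by replicate within the 4 groups (horizontal axis), with lines that only join the points of one probe. The Csf3r and Mtif2 probes run together, with a root mean square difference of 0.0478, and the other 9 lie at 0.126 to 0.727 from the Csf3r probe.

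The same measure, over 12 arrays on 3 slides, each with its own scan, gave the genes with the most similar profile for the other members. Csf1 on A_51_P195506 was nearest to Serpina3f (0.412), Bend6 (0.420) and Mmp3 (0.430), and Csf2 to the complement gene C3 (0.365), Gpr35 (0.400) and Tgm2 (0.410). Csf3 was nearest to Stfa2l1 (0.505), Arrdc4 (0.531) and Cd36 (0.583), and Csf2ra to Rbm47 (0.445), Arhgef6 (0.466) and the MHC class II invariant chain gene Cd74 (0.471). On their representative probes, Csf1r had Pepd (0.199) and Ms4a5 (0.210) among its nearest genes, and Csf2rb was nearest to Rhog (0.113), Dcaf15 (0.120) and Pofut2 (0.135). C3, the nearest to Csf2, averaged 2.16 in ABHD5-KD and -1.66 in control RAW264.7 cells, and 3.05 in KD-primed and 2.57 in control-primed CT-26 cells. These distances only describe the profiles and are not scaled to how much a gene varied.

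The partners of these receptors were followed through 4 lists chosen for the pathway. Of the genes that pair with the members as ligands or chains, 5 of 6 were tested (Il5 was not). In ABHD5-KD RAW264.7 cells 1 was higher (Csf2rb2, above) and none lower, beside 7.94% and 14.9% of all genes. The median change was -0.07, beside -0.30 for all genes. In KD-primed CT-26 cells 2 of 5 were lower and none higher, beside 3.21% and 3.15% of all genes, with a median of -0.11 beside 0.11. These were Il5ra, the interleukin-5 receptor alpha chain (-1.05 in KD-primed and 0.61 in control-primed cells, adjusted p = 0.0113), and Il34, the second ligand of CSF1R (log2 change -0.70, adjusted p = 0.048). The Il34 call was lost under array-median centring (adjusted p = 0.068), and that of Il5ra without control-primed replicate 3 (adjusted p = 0.0572).

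Of the JAK-STAT genes downstream of the CSF2 and CSF3 receptors, all 16 were tested, and 6 were higher and 2 lower in ABHD5-KD RAW264.7 cells, with a median change of 0.34, beside 7.94% of all genes higher, 14.9% lower and a median of -0.30. Socs2, a feedback inhibitor of cytokine signalling with 4 probes on the array, averaged -2.97 in ABHD5-KD and -6.55 in control RAW264.7 cells (adjusted p = 2.31e-05). That is its representative probe, and the other Socs2 probes are not given. Only 1 of the 3 control arrays measured Socs2, so the size of its change, 3.58 and with normexp correction 1.55, is uncertain. Cish (log2 change 1.47, adjusted p = 0.00608) and Socs3 (1.08, adjusted p = 0.0067), inhibitors of the same family, were also higher. Bcl2l1, a survival gene of the BCL2 family, was lower on the representative of its 2 probes (log2 change -1.13, adjusted p = 0.00398).

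With slide as a block Socs2 still passed (adjusted p = 0.000466), whereas the adjusted p was 0.0828 for Cish, 0.119 for Socs3 and 0.0651 for Bcl2l1. In KD-primed CT-26 cells 1 of 16 was lower and none higher, beside 3.21% and 3.15% of all genes, with a median of 0.09. It was Pim1, a kinase induced by STAT signalling (-0.46 in KD-primed and 0.91 in control-primed cells, adjusted p = 0.0156), and without KD-primed replicate 3 the adjusted p was 0.0648.

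Of 20 genes that carry or limit CSF1R signals, 19 were tested in RAW264.7 cells, with 4 higher, 3 lower and a median change of -0.08. The share lower is near the 14.9% of all genes, while 7.94% of all genes were higher. The Src-family kinases Lyn (-1.15 in ABHD5-KD and -2.36 in control RAW264.7 cells, adjusted p = 0.00861) and Fyn (log2 change 0.71, adjusted p = 0.0335) were higher. Adam17, a protease that sheds CSF1R from the cell surface, was lower on the representative of its 2 probes (log2 change -0.70, adjusted p = 0.0358). The Adam17 call was lost under array-median centring (adjusted p = 0.131) and quantile normalization (adjusted p = 0.0716). None of these 3 passed with slide as a block (adjusted p of 0.0706 for Lyn, 0.29 for Fyn and 0.176 for Adam17). In KD-primed CT-26 cells 1 of 17 was lower and none higher, beside 3.21% and 3.15% of all genes, with a median of 0.03. It was Pik3r1, the regulatory subunit of PI3-kinase (-3.89 in KD-primed and -2.86 in control-primed cells, adjusted p = 0.0299), and the call was lost with normexp correction (adjusted p = 0.0539).

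Of 8 transcription factors of the myeloid lineage, all were tested in RAW264.7 cells, with 2 higher, 1 lower and a median change of 0.11, beside 7.94% of all genes higher and 14.9% lower, so the single lower gene is near the background. Cebpe, a factor of late granulocyte maturation, averaged 3.16 in ABHD5-KD and 1.29 in control RAW264.7 cells (adjusted p = 0.00324), and Ets2 changed by 0.60 (adjusted p = 0.0399). Irf8, which directs cells to the monocyte lineage, was lower (log2 change -1.20, adjusted p = 0.00609). With slide as a block the adjusted p was 0.0524 for Cebpe, 0.199 for Ets2 and 0.0774 for Irf8. None of the 6 tested in CT-26 cells passed, beside 6.36% of all genes (median change 0.22).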

How the data were processed

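Per the labels, the RNA was TRIzol-extracted total RNA, linearly amplified into Cy3-labelled target. Agilent Feature Extraction 10.7.3.1 made the scanner files, per the submitters' processing notes. The authors deposited these files, in which every spot has a linear intensity, a processed signal corrected for background and a mark for signal well above background, per the file headers. The authors also deposited a table whose RAW264.7 columns are log2 values and whose CT-26 columns are linear intensity, as read from the values. Of its CT-26 columns 5 of 6 match another replicate of the same group, and it served as an alternative only.

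From the scanner files, control and outlier-flagged spots were left out, the processed signal was put on the log2 scale relative to the array's 75th percentile, and spots of a probe were averaged. Genes were tested where all 3 arrays of at least 1 of the compared groups measured the probe, with limma 3.58.1 in R 4.3.3 (Benjamini-Hochberg adjustment), after the script was tested on simulated data. Precision is limited by 3 arrays a group. Alternatives were array-median and quantile scaling, normexp (offset 50), no filter, the deposited table, single probes, replicate and slide blocks, and leaving out arrays. Member probes carry the array design's gene names, and other names were updated through RefSeq accessions or symbols where these matched. Besides the members, genes were named as Abhd5, Csf2rb2, up to 4 per list and comparison with the smallest p past the threshold, and the 3 most similar profiles per member. Some genes that this rule names are not reported here. Members and lists were chosen with earlier results of these data known.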

Additional observations from a re-analysis of the deposited data

Results flagged for a closer look

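For 5 members the change in RAW264.7 cells (ABHD5-KD minus control) differed from that in CT-26 cells (KD-primed minus control-primed) by a test of the difference itself, limma's interaction over 12 arrays. The difference was 2.02 (SE 0.504) for Csf1, 3.40 (SE 0.443) for Csf2, 2.25 (SE 0.528) for Csf3, 1.50 (SE 0.251) for Csf2ra and -0.69 (SE 0.235) for Csf3r, on the log2 scale. With slide as a block, of these 5 only Csf2 and Csf2ra passed. Csf1, Csf2 and Csf3 had a positive mean change in both cell lines, and it was larger in RAW264.7 cells. Csf2ra had 0.01 in RAW264.7 and -1.49 in CT-26 cells. Csf3r had -0.55 in RAW264.7 and 0.14 in CT-26 cells.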

How the results depend on the processing

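The 3 ligand calls in RAW264.7 cells and the Csf3 and Csf2ra calls in CT-26 cells held under array-median and quantile scaling, normexp, the deposited table, single probes and leaving out any 1 array. Normexp gave smaller changes, 1.85 for Csf1 and 2.85 for Csf2 in RAW264.7 cells, and 1.12 for Csf3 and -0.95 for Csf2ra in CT-26 cells. In RAW264.7 cells Csf1 did not pass with slide as a block or within 1 slide (1.76 in both). In CT-26 cells Csf3 (1.56) and Csf2ra (-1.49) did not pass without the filter on dim probes. That setting tested 35080 genes, of which 41 passed, and why these calls were lost was not tested. Leaving out 1 array gave Csf3r in RAW264.7 cells -0.67 to -0.41, with a call over genes, but not over probes, without control replicate 3. For Csf2rb in CT-26 cells it gave 0.38 to 0.84, with a call over genes without KD-primed replicate 1. Quantile normalization reversed the cell-line difference of Csf3r (0.62, gene and probe) and of Bcl2l1 (0.026). The cause was not tested.

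Counts over all genes moved more. In RAW264.7 cells (5802 genes) they were 3834 with array-median centring, 2643 without the filter, 1166 with slide as a block, 1867 within 1 slide, and 1692 (without ABHD5-KD replicate 3) to 7388 (without control replicate 3) when 1 array was left out. In CT-26 cells (1590 genes) they were 41 without the filter, 2500 over single probes, and 94 (without control-primed replicate 3) to 3000 (without KD-primed replicate 1) when 1 array was left out. The interaction (8493 genes) gave 2379 with slide as a block and 5095 to 10174 when 1 array was left out. With the replicate number as a block, although same-numbered samples did not deviate together (correlations -0.29 to 0.06), counts were 4811, 901 and 6131, and of the member genes only the interaction of Csf3r lost its call (adjusted p = 0.0759). Probes near background limit what can be said of Csf3 in CT-26 cells and of Csf1 transcript variant 3 in RAW264.7 cells.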
